A study of Homo sapiens with 12 samples.

Results

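Immediate early genes are transcribed within minutes of a signal, from promoters that are already poised, without new protein synthesis. The 10 described here lie outside the AP-1, NR4A and Kruppel-like families: EGR1, EGR2, EGR3, IER2, IER3, IER5, ZFP36, BTG2, SRF and NFKBIZ. The list is one of gene names, drawn up with earlier results of these data known, and all 10 of 10 were found among 62702 gene entries and were among the 17677 genes with enough counts to be tested. SRF is the transcription factor at the head of one such response: with ternary complex factors, which are phosphorylated by ERK, or with MRTF coactivators, which respond to actin, it binds CArG boxes in the promoters of immediate early and cytoskeletal genes. The EGR proteins are zinc finger transcription factors induced in that way, while ZFP36, BTG2 and NFKBIZ act downstream as regulators of mRNA decay and of NF-kB dependent transcription. In breast epithelium such genes are known for their brief responses to growth factors and serum.

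The cells were MCF10AT, a Ras-transformed derivative of the MCF10A human breast epithelial line. Every group carried a pair of human prolactin receptor forms, long and intermediate (hPRLrL/hPRLrI), and 2 of the 4 groups had the intermediate form without its I-tail (hPRLrL/hPRLrI I-tail deleted). All groups were starved of serum for 24 h, and 2 of them were then treated for 2 h with 250 ng/ml prolactin (PRL), so the groups were intact untreated, intact PRL, deleted untreated and deleted PRL, with 3 libraries each. The treated cells are called biological replicates by the labels, which do not say whether each library came from a separate culture or clone, nor give a group without the introduced receptors. P-values therefore measure the spread between these libraries. A single time point was sampled, so earlier and later levels of these short-lived transcripts were not analysed here.

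Libraries held 36120808 to 57324865 counts. Levels are given as CPM, a gene's counts relative to the library total scaled by the trimmed mean of M values (TMM), and a gene was called when the Benjamini-Hochberg adjusted p of edgeR's quasi-likelihood test was below 0.05. Sample titles run from 1 to 12, and each run of 4 consecutive titles holds 1 library of each group. The labels do not call these runs batches, but the 4 libraries of titles 1 to 4 stood apart in several epithelial markers. KRT5 was 309.9 to 415.9 CPM there against 995.1 to 3331 in the other 8 libraries. KRT17 was 406.4 to 540.5 against 2232 to 4670, and CDH1 9.89 to 15.0 against 18.9 to 68.7. KRT14, KRT8, KRT18 and HRAS were also lower there without overlap. EPCAM (2.40 to 3.30 against 1.16 to 5.33 CPM) and TP63 (5.56 to 8.635 against 8.40 to 33.9) overlapped. With a term for the runs, KRT14 was also higher with PRL (0.38 ± 0.08 on the log2 scale, edgeR's adjusted p = 0.0239) and with the deleted I-tail (0.50 ± 0.08, 0.0271), and CDH1 with the deleted I-tail (0.84 ± 0.12, 0.0152), while without the term neither was called. KRT8 (0.42 ± 0.22), KRT18 (0.45 ± 0.27) and HRAS (0.24 ± 0.22) were not called for PRL in either fit. The part of these markers in the results was not tested. Prolactin receptor gene counts (PRLR) were 3099 to 3959 CPM in all 12 libraries. Intact PRL library 2 had the lowest TMM factor (0.7905) and the fewest genes with counts (19073, against up to 25200). Of the other cell types checked, 8 leukocyte markers summed to 39.0 to 54.7 CPM in untreated and 53.3 to 66.0 in PRL libraries, almost all of it CD14 and CSF1R, with PTPRC and CD3E at 0.0227 CPM or less. The part of CD14, which was higher with PRL by 0.64 ± 0.17 (log2), in the PRL results was not tested; it was called with the run term (edgeR's adjusted p = 0.00485) and not without (0.411). The 6 endothelial markers summed to 1.22 to 3.30 CPM and the 8 fibroblast markers, mostly DCN and COL1A1, to 423.8 to 617.7 CPM, with overlap of untreated and PRL libraries.

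After 2 h of prolactin, IER3 was higher than in untreated cells, at 90.5 ± 9.85 CPM (SD, n = 6) without PRL and 150.1 ± 27.6 (n = 6) with it. SRF was 78.8 ± 16.2 CPM without and 109.7 ± 32.7 with PRL, while IER5, ZFP36 and BTG2 were lower with PRL by smaller amounts. In the test over both receptor pairs 0 of 10 were called, against 0.119% of all genes tested (21 of 17677). The members' median log2 fold change was 0.03, against -0.02 for all genes, and 7 of 10 lay above 0. At an unadjusted p below 0.05 there were 2, IER3 and SRF, against 673 of all 17677 genes. DESeq2 and limma-voom each called 1, IER3, where they called 91 and 118 genes in all. For PRL with the intact I-tail and with the deleted I-tail 0 members were again called, where 0.017% of all genes were called in each. In each, 1 member, IER3, had an unadjusted p below 0.05, as had 451 and 316 of all 17677 genes.

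**Figure D1:**
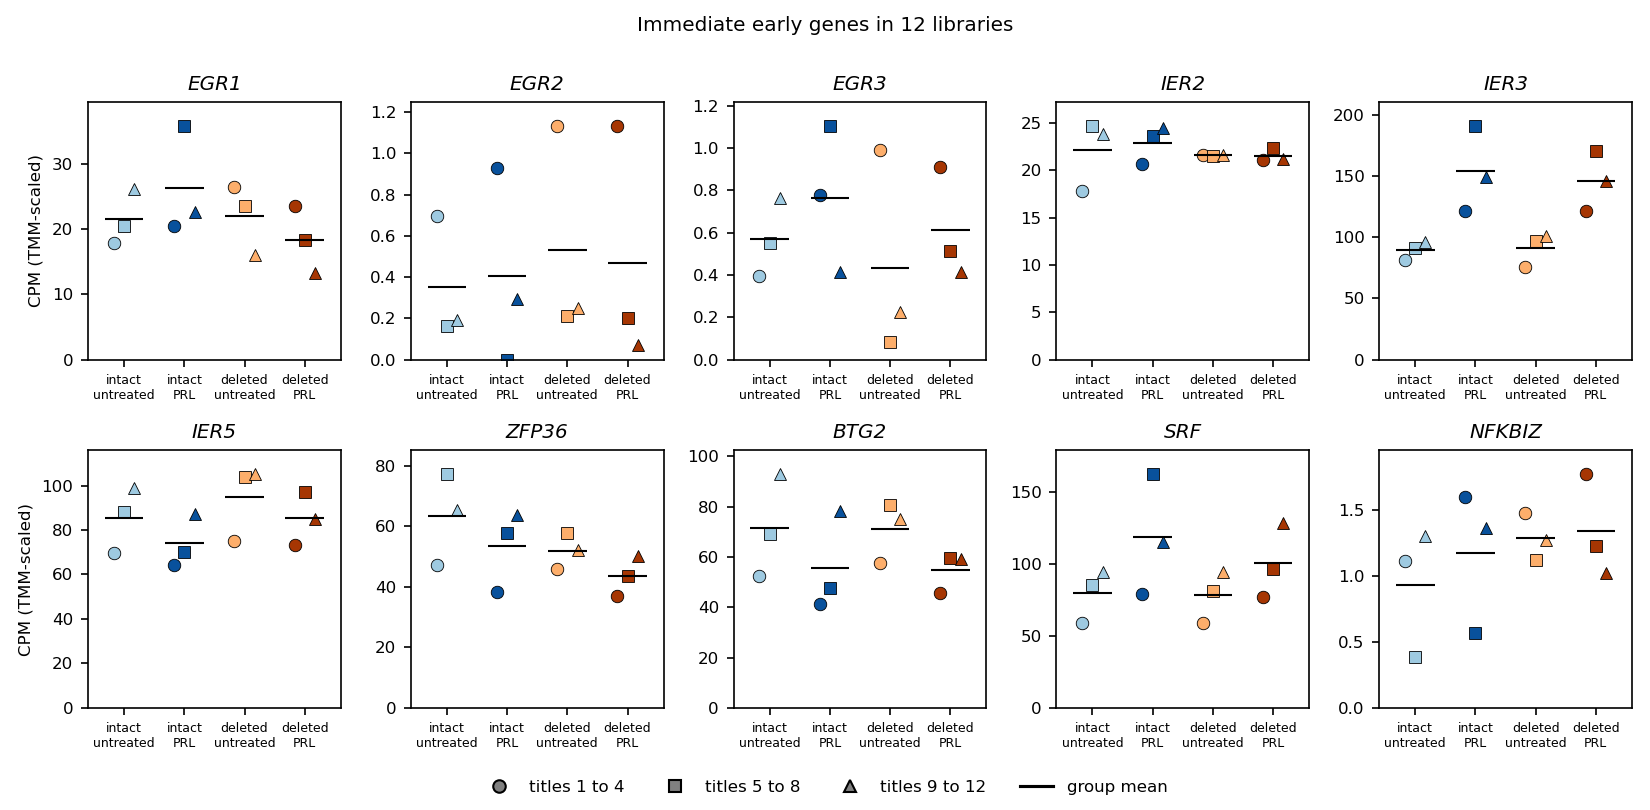
CPM of the 10 genes in each of 12 libraries, by group on the x axis, with marker shapes for the runs of sample titles and a bar at each group mean (n = 3). All 6 PRL libraries lie above all 6 untreated ones for IER3, and the circles of titles 1 to 4 stand above the rest for EGR2.

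The genes spanned a wide range of levels. Per length, as RPKM (CPM divided by the kilobases of each gene's merged GENCODE 29 exons), IER3 was the most abundant at 88.7 ± 27.2 (SD over 12 libraries). ZFP36 at 26.4 ± 5.93, BTG2 at 22.9 ± 5.80, SRF at 22.4 ± 7.01 and IER5 at 20.3 ± 3.41 RPKM followed, and these 4 do not differ from their neighbours beyond their spread. IER2 at 7.18 ± 0.624 and EGR1 at 7.03 ± 1.87 RPKM came next and did not differ beyond their spread either. NFKBIZ at 0.201 ± 0.0670, EGR3 at 0.123 ± 0.0649 and EGR2 at 0.119 ± 0.113 RPKM were sparse, with 0 to 80 counts per library between them.

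SRF (ENSG00000112658, GRCh38 chromosome 6, 43171299 to 43181507, plus strand) encodes serum response factor itself. Its level was 58.9, 85.2 and 94.6 CPM in intact untreated and 79.0, 162.5 and 115.1 in intact PRL libraries 1 to 3. In cells with the deleted I-tail it was 59.0, 80.8 and 94.2 CPM untreated and 77.0, 96.4 and 128.4 with PRL. The untreated and PRL libraries overlapped when all were pooled, yet within every run of titles the PRL library was the higher one, in 6 of 6 comparisons, by 0.26 to 0.93 on the log2 CPM scale. PRL was the higher in 6 of 6 for 8.37% of all genes tested. The averaged fold change was 1.39 (log2 0.47 ± 0.20, SE; 95% interval 0.04 to 0.91), with edgeR's adjusted p = 0.98. With a term for the title runs it was 0.47 ± 0.10 and was called (edgeR's adjusted p = 0.0407), where 1.12% of all genes were called. Without intact PRL library 2, the highest of all 12, the unblocked value was 0.33 ± 0.19.

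The promoters of SRF and of 2 EGR genes carry the boxes that SRF binds, and they are shown for that reason. RefSeq windows of 250 bases before an annotated start (GRCh38.p14) were at hand for 8 of the 10 genes, 12 windows in all, and 3 of these 12 hold a CArG box on either strand, against 1.16% of 35116 windows of that length. The sequences are printed 5' to 3' on the gene's strand with the CArG boxes in capitals, EGR1 from chr5:138465229-138465478 (plus), EGR2 from chr10:62816367-62816616 (minus, the third of its annotated starts) and SRF from chr6:43171019-43171268 (plus).
EGR1: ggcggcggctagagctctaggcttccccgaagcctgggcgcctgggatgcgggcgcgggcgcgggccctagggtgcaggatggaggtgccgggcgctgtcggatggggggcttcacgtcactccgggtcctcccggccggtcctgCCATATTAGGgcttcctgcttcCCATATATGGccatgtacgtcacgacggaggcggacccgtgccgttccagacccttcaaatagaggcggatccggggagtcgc
EGR2: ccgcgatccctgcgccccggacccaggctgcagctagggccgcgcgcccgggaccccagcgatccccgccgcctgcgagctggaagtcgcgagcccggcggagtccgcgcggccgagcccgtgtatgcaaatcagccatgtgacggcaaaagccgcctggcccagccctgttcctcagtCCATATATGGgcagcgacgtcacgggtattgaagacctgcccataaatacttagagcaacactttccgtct
SRF: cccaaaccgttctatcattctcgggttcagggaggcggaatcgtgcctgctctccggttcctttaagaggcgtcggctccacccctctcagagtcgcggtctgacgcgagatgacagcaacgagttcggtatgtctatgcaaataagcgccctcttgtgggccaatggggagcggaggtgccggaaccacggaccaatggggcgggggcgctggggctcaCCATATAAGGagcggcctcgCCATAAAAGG
EGR1 has 2 boxes, at 105 to 96 and 83 to 74 bases before the start, EGR2 has 1 at 71 to 62, and SRF has 2 at 30 to 21 and 10 to 1. The EGR1 window also holds a STAT site (TTCNNNGAA, in 6.57% of all windows) at 228 to 220 bases before the start, and an EGR site (GCGNGGGCG, 8.41%) at 198 to 190. The SRF window holds an EGR site at 49 to 41, the BTG2 window holds 2, at 172 to 164 and 151 to 143, and the second NFKBIZ window 1 at 177 to 169. Short CRE sites (TGACG, 21.2%) lie in the windows of EGR1, EGR2, SRF, BTG2 and IER2, and NFKBIZ has a kappaB site in each of its 2 windows (5.21% of all windows), at 223 to 214 and 239 to 230 bases before the start, as has the second SRF window at 38 to 29. Both strands were searched. These are matches of letters, and no binding was measured. Some windows overlap annotated GENCODE 29 exons: the second NFKBIZ window does so with all 250 bases and the IER2 window with 223. The second SRF window (43172146 to 43172395) lies within the SRF gene.

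EGR1 (ENSG00000120738, chromosome 5, 138465490 to 138469315, plus strand), encodes a transcription factor that growth factors and serum induce. Its level was 17.9, 20.4 and 26.1 CPM in intact untreated and 20.5, 35.9 and 22.6 in intact PRL libraries. With the deleted I-tail it was 26.4, 23.6 and 16.1 CPM untreated and 23.5, 18.4 and 13.3 with PRL. Groups overlapped throughout, and 1 library, intact PRL 2, stood above all others. The averaged PRL effect was 0.02 ± 0.19 on the log2 scale (95% interval -0.40 to 0.44). That interval, for the average over both receptor pairs, excludes a rise as large as the 0.73 of IER3. The interval with the deleted I-tail (-0.85 to 0.33) does so too, while that with the intact I-tail (-0.30 to 0.88) does not. The PRL effect was 0.29 ± 0.28 with the intact and -0.26 ± 0.28 with the deleted I-tail. The difference between the pairs was -0.55 ± 0.39 (edgeR's adjusted p = 1). Without intact PRL library 2 that difference was -0.26 and the averaged effect turned to -0.12.

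EGR2 (ENSG00000122877, chromosome 10, 62811996 to 62919900, minus strand) is best known from nerve and immune cells. It differed by title run rather than by group: the 4 libraries of titles 1 to 4 had 30 to 51 counts (0.696 to 1.13 CPM), the other 8 had 0 to 12 (0 to 0.2925 CPM). Both treatments and both receptor pairs are present in each run. Its averaged PRL effect was 0.05 ± 0.80 and turned to -0.20 with a term for title runs.

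EGR3 (ENSG00000179388, chromosome 8, minus strand), a relative that EGR1 and other early factors can induce, had 4 to 44 counts per library. Its level was 0.394, 0.552 and 0.764 CPM in intact untreated, 0.777, 1.11 and 0.414 in intact PRL, 0.992, 0.0845 and 0.227 in deleted untreated and 0.911, 0.514 and 0.414 in deleted PRL libraries. All groups overlapped, and the averaged PRL effect was 0.46 ± 0.50. With 1 library left out it ran from 0.215 (without deleted untreated library 2) to 1.19 (without deleted untreated library 1), and was 0.257 without deleted PRL library 1 and 0.283 without intact PRL library 2. The gene shares 164 exon bases with AC055854.1 on the opposite strand, which had a mean of 16.3 counts against 25.3 for EGR3. No source used here states whether counting was by strand, and without it the reads of these overlapping genes cannot be told apart.

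**Figure D2:**
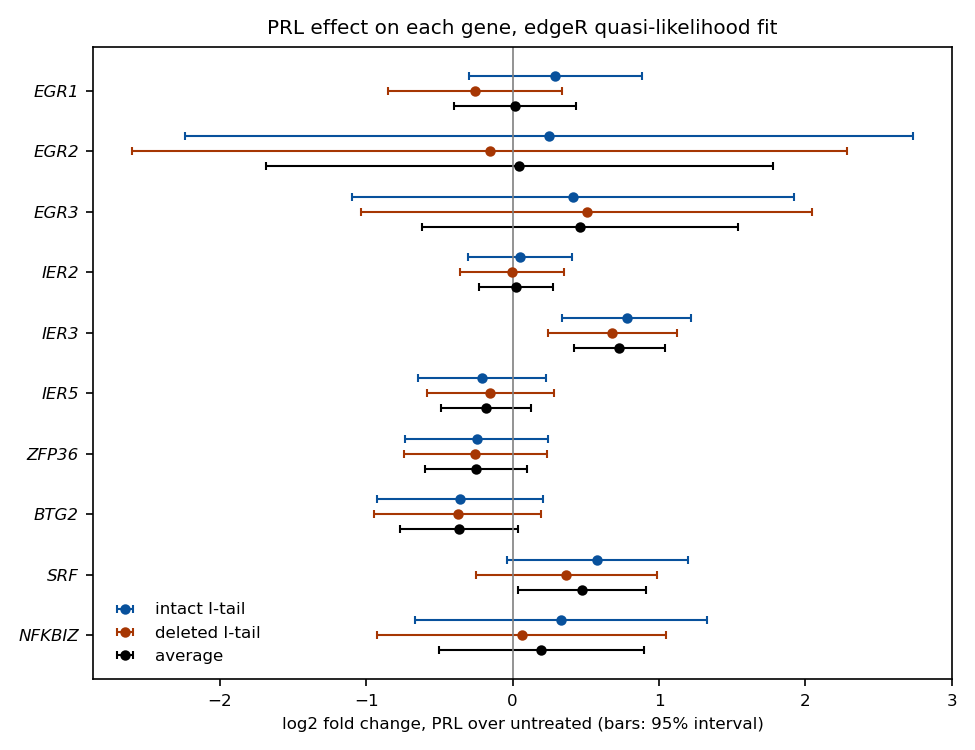
Log2 fold change of PRL over untreated from the edgeR fit, with 95% intervals, for the intact I-tail, the deleted I-tail and their average. The IER3 intervals lie above 0 in all 3, and the intervals of EGR2 and EGR3 span more than 1 unit to either side of their estimates.

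IER3 (ENSG00000137331, chromosome 6, 30743199 to 30744554, minus strand), also known as IEX-1, encodes a small stress-inducible protein tied to cell survival and ERK signalling. Its level was 81.7, 91.1 and 96.6 CPM in intact untreated libraries and 121.2, 191.3 and 149.7 in intact PRL libraries. With the deleted I-tail it was 75.8, 96.6 and 101.2 CPM untreated and 121.7, 170.9 and 145.9 with PRL. Every PRL library lay above every untreated one, within each receptor pair and over both, and 0.441% of all genes had all 6 PRL libraries above all 6 untreated ones. The averaged difference was 1.66-fold (log2 0.73 ± 0.14, 95% interval 0.42 to 1.04), which ranked 30 by p among 17677 genes and missed the call, with edgeR's adjusted p = 0.119.

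Whether IER3 passed depended on the method. It was called with a term for title runs (0.72 ± 0.08, edgeR's adjusted p = 0.000272), with DESeq2 (adjusted p = 0.00281), limma-voom (0.00359), no count filter (0.00157) and library size alone (0.0357). It was also called in the 8 libraries of titles 5 to 12 (0.77 ± 0.12, adjusted p = 0.0272) and without intact PRL library 1 (0.80, 0.034). With relative log expression factors (0.186), a stricter count filter (0.104) or any of the other 11 libraries left out it was not called (adjusted p up to 0.359, and 0.64 with 0.188 without intact PRL library 2). The fold change was 0.61 to 0.80 on the log2 scale across all 20 alternatives.

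The IER3 difference was present with both receptors. It was 0.78 ± 0.20 with the intact and 0.68 ± 0.20 with the deleted I-tail. Neither effect was called without the title run term. Each was called in 1 of 21 alternatives, with that term (edgeR's adjusted p = 0.00926 and 0.0208, where 0.351% and 0.322% of all genes were called). Their difference was -0.10 ± 0.29, with a 95% interval of -0.72 to 0.52, so a difference of up to about the size of the effect itself was not excluded. The antisense transcript IER3-AS1, which shares 359 exon bases, had a mean of 3 counts against 5026 for IER3.

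IER2 (ENSG00000160888, chromosome 19, 13150415 to 13154908, plus strand), a nuclear protein gene induced by serum and growth factors, was the steadiest of the 10. It was 17.8, 24.7 and 23.8 CPM in intact untreated, 20.7, 23.6 and 24.5 in intact PRL, 21.7, 21.6 and 21.6 in deleted untreated and 21.1, 22.4 and 21.2 in deleted PRL libraries. All groups overlapped, and the averaged PRL effect was 0.02 ± 0.12 with a 95% interval of -0.23 to 0.28.

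IER5 (ENSG00000162783, chromosome 1, 181088712 to 181092899, plus strand), whose protein acts with the heat shock factor HSF1, went the other way by a small amount. Its level was 69.4, 88.2 and 98.9 CPM in intact untreated and 64.3, 70.3 and 87.1 in intact PRL libraries. With the deleted I-tail it was 74.9, 103.7 and 105.3 CPM untreated and 73.2, 97.3 and 85.1 with PRL. Treated and untreated libraries overlapped, but PRL was the lower in 6 of 6 comparisons within a title run, by 0.03 to 0.33. The averaged effect was -0.18 ± 0.14 (edgeR's adjusted p = 0.98, and 0.368 with the title run term).

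**Figure D3:**
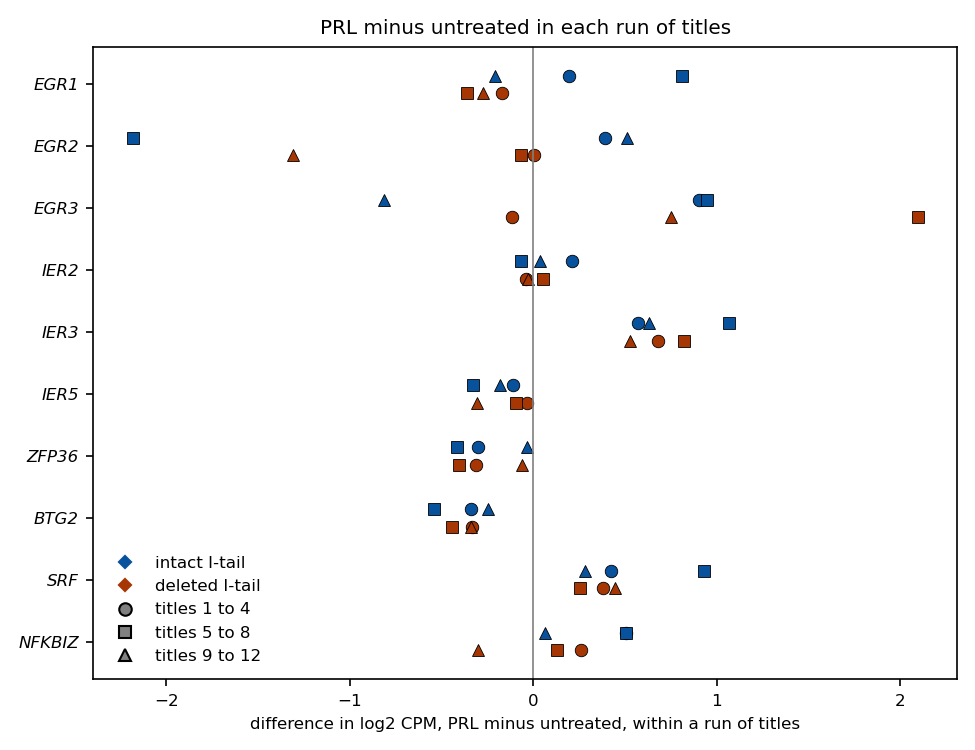
Difference in log2 CPM, PRL minus untreated, within each run of 4 sample titles, for the intact and the deleted I-tail (6 comparisons a gene). IER3 and SRF lie above 0 in 6 of 6 and IER5, ZFP36 and BTG2 below 0 in 6 of 6, while EGR1, EGR2, EGR3, IER2 and NFKBIZ fall on both sides.

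ZFP36 (ENSG00000128016, chromosome 19, 39406813 to 39409412, plus strand) encodes tristetraprolin, which binds AU-rich elements and speeds the decay of the mRNAs that carry them. Its level was 47.3, 77.4 and 65.4 CPM in intact untreated, 38.4, 58.0 and 63.9 in intact PRL, 46.0, 57.8 and 52.3 in deleted untreated and 37.0, 43.7 and 50.1 in deleted PRL libraries. PRL was the lower in 6 of 6 comparisons within a title run, by 0.03 to 0.42, although groups overlapped. The averaged effect was -0.25 ± 0.16 (edgeR's adjusted p = 0.98, and 0.232 with the title run term), and it was -0.154 without intact PRL library 1 and -0.151 without intact untreated library 2.

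BTG2 (ENSG00000159388, chromosome 1, 203305491 to 203309602, plus strand), an antiproliferative protein that recruits the CCR4-NOT deadenylase, had the lowest averaged estimate of the 10. Its level was 52.2, 68.9 and 93.0 CPM in intact untreated, 41.3, 47.5 and 78.3 in intact PRL, 57.7, 80.7 and 75.0 in deleted untreated and 45.8, 59.4 and 59.3 in deleted PRL libraries. PRL was the lower in 6 of 6 comparisons within a title run, by 0.25 to 0.54, while pooled groups overlapped. The averaged effect was -0.37 ± 0.19 (edgeR's adjusted p = 0.98, and 0.113 with the title run term). PRL was the lower in 6 of 6 for 6.05% of all genes tested and for 3 of these 10, IER5, ZFP36 and BTG2.

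NFKBIZ (ENSG00000144802, chromosome 3, 101827991 to 101861022, plus strand) encodes IkB-zeta, a nuclear cofactor needed for a subset of NF-kB targets. It had 14 to 80 counts per library, at 1.11, 0.386 and 1.30 CPM in intact untreated, 1.60, 0.568 and 1.37 in intact PRL, 1.48, 1.12 and 1.27 in deleted untreated and 1.78, 1.23 and 1.02 in deleted PRL libraries. All groups overlapped, with an averaged PRL effect of 0.19 ± 0.33 and a 95% interval of -0.51 to 0.90. Of 11 genes known to depend on it, such as the S100A7 to S100A9 group of antimicrobial proteins, 5 had enough counts to be tested and 0 were called. S100A7 stood at 0.69 ± 1.18, S100A8 at -1.34 ± 0.58 and S100A9 at 0.30 ± 0.35 for the averaged effect. Their mean levels were 0.128, 0.366 and 1.30 CPM, so the S100A7 and S100A8 values rest on few counts. Also tested were IL6 (-0.01 ± 0.41, mean 0.604 CPM) and C3 (0.03 ± 0.42, mean 353.4 CPM). With 1 library left out NFKBIZ itself ran from 0.0282 (without intact untreated library 2) to 0.362 (without intact PRL library 2).

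Of 14 paralogues 13 were tested and 0 were called for the averaged effect, with a median of 0.05. With the title run term 2 rose and 1 fell, against 167 and 31 of all 17677 genes. TOB1, a BTG2 relative that also recruits CCR4-NOT, was 57.2 to 107.7 CPM in 6 untreated and 27.8 to 55.1 in 6 PRL libraries, without overlap, as in 0.238% of all genes. Its averaged effect was -0.95 ± 0.22 (edgeR's adjusted p = 0.235, and 0.000283 with the title run term), and it was called in 5 of 20 alternatives. ZFP36L2, a second AU-rich binding protein, was 92.1 to 146.8 CPM untreated and 152.1 to 229.5 with PRL, again without overlap, as in 0.441% of all genes. Its averaged effect was 0.57 ± 0.16 (edgeR's adjusted p = 0.489, and 0.00243 with the term), opposite in sign to ZFP36. IER5L, whose untreated (124.1 to 198.6 CPM) and PRL libraries (158.9 to 348.5) overlapped, stood at 0.55 ± 0.18 (0.854, and 0.0232 with the term), opposite in sign to IER5. The differences between ZFP36 and ZFP36L2 and between IER5 and IER5L were not tested.

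**Figure D4:**
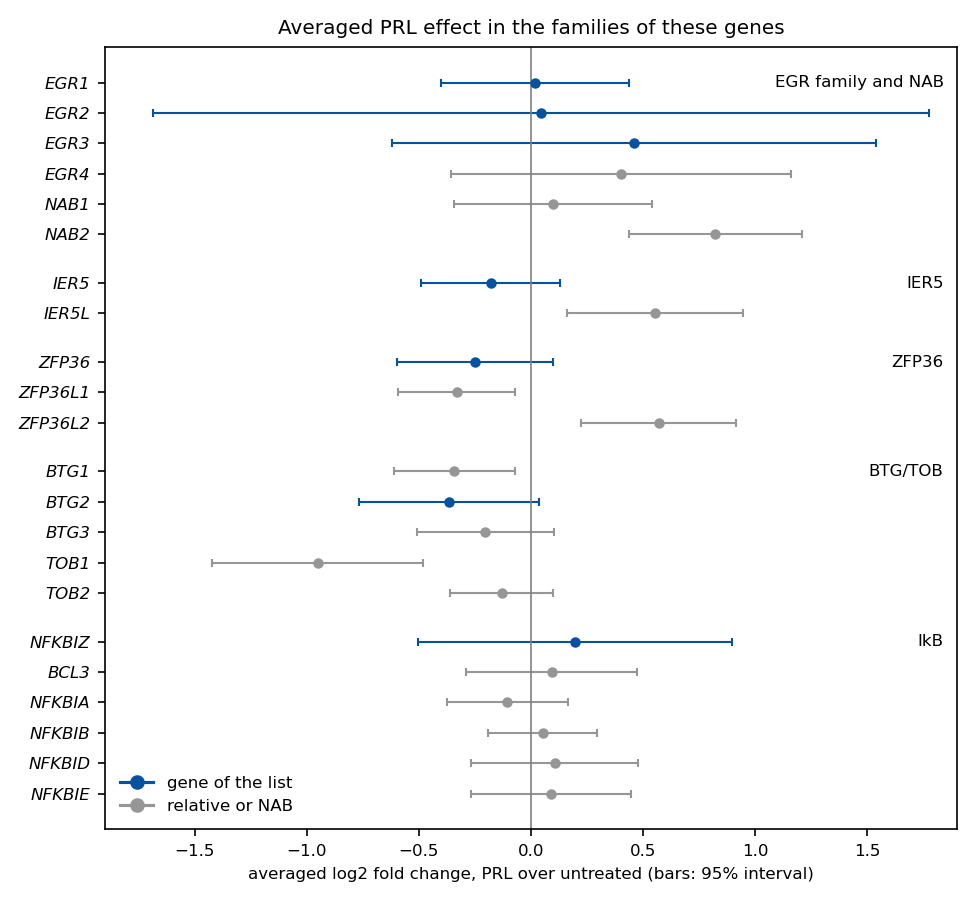
Averaged log2 fold change of PRL over untreated with 95% intervals for EGR1, EGR2, EGR3, IER5, ZFP36, BTG2 and NFKBIZ (blue) and their relatives and the NAB cofactors (grey), grouped by family. The intervals of NAB2, IER5L and ZFP36L2 lie above 0 and those of TOB1, BTG1 and ZFP36L1 below it, while the 7 blue intervals reach across 0.

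Of 16 cofactors of the EGR proteins and regulators of SRF, 0 were called for the averaged effect, with a median of 0.09. With the title run term 1 rose, against 167 of all 17677 genes. That one was NAB2, a corepressor that binds EGR proteins and is itself a known EGR target, at 43.4 to 67.2 CPM in untreated and 67.3 to 154.8 in PRL libraries, where the highest untreated value lies just below the lowest treated one. Its averaged effect was 0.82 ± 0.18 (edgeR's adjusted p = 0.192, and 0.000779 with the term, 7 of 20 alternatives calling it). With 1 library left out it ran from 0.65 to 0.933 (edgeR's adjusted p up to 0.543). Of all genes, 0.441% likewise had all 6 PRL libraries above all 6 untreated ones. The ternary complex factor gene ELK1 stood at 0.28 ± 0.21 and the MSK2 kinase gene RPS6KA4 at 0.46 ± 0.29, and neither was called in any of 20 alternatives. Without intact PRL library 2 they stood at 0.124 and 0.241.

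Of 15 tested actin and cytoskeleton genes known as SRF targets, 14 lay above 0 for the averaged PRL effect, and 0 were called. Their median was 0.33, against -0.02 for all genes. Levels ranged widely between libraries, as for ACTB (2316 to 9580 CPM) and FLNA (2206 to 8468 CPM). The share of all genes above 0 and the list median without intact PRL library 2 were not computed. CCN2, a matricellular protein gene, was 6.37 to 20.3 CPM untreated and 18.9 to 99.6 with PRL, at 1.56 ± 0.42 (edgeR's adjusted p = 0.427), and rose with the title run term (1.48 ± 0.20, 0.00087). Intact PRL library 2 was the highest, and without it CCN2 stood at 0.999 (edgeR's adjusted p = 0.903). ZYX, encoding the focal adhesion protein zyxin, stood at 0.52 ± 0.28 and MYH9, encoding a nonmuscle myosin heavy chain, at 0.28 ± 0.14, neither called, and at 0.311 and 0.173 without intact PRL library 2. Among 10 tested EGR1 targets the median was 0.38, against -0.02 for all genes, and 0 were called. THBS1, the thrombospondin-1 gene, was 264.8 to 584.0 CPM untreated and 412.4 to 1293 with PRL. Its averaged effect was 0.98 ± 0.26 (edgeR's adjusted p = 0.404, and 0.0638 with the title run term). With 1 library left out THBS1 ran from 0.677 to 1.16 (edgeR's adjusted p up to 0.973). PDGFA, a growth factor gene, stood at 0.48 ± 0.16 (edgeR's adjusted p = 0.882, and 0.09 with the term).

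Of 13 AU-rich mRNAs that tristetraprolin is known to bind, 9 were tested, with a median of -0.05 and 0 called. PLAUR, the urokinase receptor gene, was 42.2 to 67.0 CPM untreated and 56.6 to 92.3 with PRL, at 0.42 ± 0.12 (edgeR's adjusted p = 0.501), and rose with the title run term (0.0252). CCND1, the cyclin D1 gene, stood at 0.44 ± 0.26 and the chemokine gene CXCL2 at -0.24 ± 0.36, neither called. The inflammatory transcripts TNF, CSF2, PTGS2 and CCL20 had too few counts to be tested.

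Set beside these 10, 30 other immediate early genes had a median averaged effect of 0.15, and 3 of 30 rose, against 20 of all 17677 genes. JUN, an AP-1 subunit, was 40.8 to 68.2 CPM untreated and 156.0 to 220.5 with PRL (1.77 ± 0.15, edgeR's adjusted p = 0.000208, called in 20 of 20 alternatives). TRIB1, a pseudokinase, stood at 1.09 ± 0.15 (edgeR's adjusted p = 0.00694, lost with library size alone at 0.197). JUNB, another AP-1 subunit, stood at 0.94 ± 0.16 (edgeR's adjusted p = 0.0386, called in 9 of 20 alternatives, with adjusted p up to 0.187). With the title run term 6 of 30 rose, FOSL1, KLF6 and ID1 besides these 3, and NR4A2 fell (-1.08 ± 0.22, edgeR's adjusted p = 0.0232). Of all 17677 genes 167 rose and 31 fell with that term. No test compared the 2 lists.

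The I-tail deletion moved none of the 10 past the test. In the averaged deletion effect, in untreated cells and under PRL, 0 of 10 were called, where 0.00566% of all genes (1 of 17677) were called in each. In each, 0 of 10 had an unadjusted p below 0.05, against 403, 148 and 286 of all 17677 genes. DESeq2 and limma-voom called 0 of 10 as well. With the title run term 0 of 10 were again called. For the averaged effect 2 had an unadjusted p below 0.05 (ZFP36 and IER5), as had 2372 of all 17677 genes. Under PRL 2 had one (EGR1 and ZFP36), as had 1308 of all 17677 genes. ZFP36 was the most regular, lower with the deleted I-tail in 6 of 6 comparisons within title runs, by 0.04 to 0.42, as were 2.99% of all genes. Its averaged deletion effect was -0.29 ± 0.16 (edgeR's adjusted p = 0.991, and 0.322 with the title run term). EGR1 under PRL stood at -0.515 ± 0.276 with the deleted against the intact I-tail (edgeR's adjusted p = 1), and at -0.24 without intact PRL library 2. In the interaction, the test of whether the PRL effect differed between receptors, 0 of 10 were called, 0 had an unadjusted p below 0.05, and 0% of all genes were called by edgeR, DESeq2 or limma-voom (127 genes had an unadjusted p below 0.05 in edgeR).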

How the data were processed

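The authors deposited raw gene counts (Ensembl identifiers, 1 column a library). Per the submitters' processing notes the tools were FastQC, STAR 2.7.9a and featureCounts (Subread), with build GRCh38. Annotation release, strand setting and filters: not given in the sources used here. Of 62703 entries 1 without values was left out. After filterByExpr and TMM scaling, edgeR 4.0.16 (R 4.3.3) was fitted with 1 mean per group and robust quasi-likelihood dispersions, and 7 contrasts were adjusted over 17677 genes. Standard errors are the fold change over the square root of F, intervals are 95%, and log2 CPM use a prior count of 2. DESeq2 1.42.0 and limma 3.58.1 (voom) were alternatives, with other scalings and filters (stricter: 1 CPM and 10 counts in 3 libraries), a term for runs of titles, only the compared groups, and each library left out. The method was tested on simulated data. Coordinates and lengths came from GENCODE 29, promoters from RefSeq. The 10 genes and the lists were chosen with earlier results of these data known. Named besides them were, from each list, genes called in either fit and the 3 smallest p for the averaged PRL effect, and for each gene the 3 with the highest correlation; genes of the fibroblast, leukocyte and endothelial marker lists are given mainly by their summed level. Libraries are numbered 1 to 3 within a group in the order of titles.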

Additional observations from a re-analysis of the deposited data

How the results depend on the processing

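Across 9 other settings and 12 fits that each left out 1 library, the 10 genes gave 1433 values for 70 fold changes. Of these, 1276 kept their direction and their side of the threshold, 10 passed it newly, 0 lost a call and 147 turned sign, all of the last without a call; the cause was not tested. Scaling by library size alone lowered the median of all genes by 0.1 for the averaged PRL effect. The fit of titles 5 to 12 alone was chosen after the data were seen. EGR2, EGR3 and NFKBIZ had 0 to 80 counts per library, which limits their precision; for EGR2 the SD within groups also went from 1.6 to 0.889 with the term for title runs.

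The count of called members for the averaged PRL effect went from 0 to 1 with library size alone, no count filter, DESeq2, limma-voom and titles 5 to 12 alone, to 2 with the term for title runs, and was 0 to 1 with 1 library left out (1 without intact PRL library 1). With that term it went from 0 to 1 with the intact and with the deleted I-tail. For the averaged PRL effect, 21 genes were called, against 124 with no count filter, 91 with DESeq2, 118 with limma-voom with quality weights, 198 with the term for title runs and 37 with titles 5 to 12 alone, and 11 to 27 with 1 library left out (12 and 11 without deleted untreated libraries 1 and 2). For the PRL effect with the intact I-tail, 3 genes were called, against 1 with library size alone and only the compared groups fitted, 46 with no count filter, 22 with DESeq2, 27 with limma-voom with quality weights and 62 with the term for title runs, and 1 to 4 with 1 library left out. For the PRL effect with the deleted I-tail, 3 genes were called, against 1 with library size alone, 33 with no count filter, 20 with DESeq2, 21 with limma-voom with quality weights, 57 with the term for title runs and 11 with only the compared groups fitted, and 1 to 5 with 1 library left out. For the averaged deletion effect, 1 gene was called, against 33 with no count filter, 10 with DESeq2, 9 with limma-voom with quality weights and 11 with the term for title runs, and 1 to 2 with 1 library left out. For the untreated deletion effect, 1 gene was called, against 0 with library size alone, only the compared groups fitted and titles 5 to 12 alone, 6 with no count filter and limma-voom with quality weights and 4 with DESeq2, and 0 to 1 with 1 library left out. For the deletion effect under PRL, 1 gene was called, against 0 with library size alone, only the compared groups fitted and titles 5 to 12 alone, 4 with no count filter and 2 with DESeq2 and limma-voom with quality weights, and 0 to 1 with 1 library left out.

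Signs turned with library size alone to EGR1 -0.0966, EGR2 -0.00341 and IER2 -0.0764 for the averaged PRL effect, IER2 -0.0634 for the PRL effect with the intact I-tail, NFKBIZ -0.00528 for the PRL effect with the deleted I-tail, IER2 0.0416, IER3 0.0719 and BTG2 0.0779 for the averaged deletion effect, IER2 0.0546, BTG2 0.0694 and SRF 0.051 for the untreated deletion effect, IER2 0.0286, IER3 0.0545 and BTG2 0.0865 for the deletion effect under PRL, ZFP36 0.0256 and BTG2 0.0171 for the interaction. Signs turned with limma-voom with quality weights to EGR1 -0.123 and EGR2 -0.158 for the averaged PRL effect, EGR1 -0.0723 and EGR3 -0.546 for the PRL effect with the intact I-tail, IER2 0.017 and NFKBIZ -0.00962 for the PRL effect with the deleted I-tail, IER3 0.0177 for the averaged deletion effect, EGR1 -0.299 and IER3 -0.0127 for the untreated deletion effect, EGR2 -0.168, EGR3 0.179, IER3 0.0481 and NFKBIZ -0.0298 for the deletion effect under PRL, IER3 0.0608 for the interaction. Signs turned with the term for title runs to EGR1 -0.0031 and EGR2 -0.202 for the averaged PRL effect, EGR2 -0.0245 for the PRL effect with the intact I-tail, BTG2 0.02 for the averaged deletion effect, EGR1 -0.00481 and BTG2 0.025 for the untreated deletion effect, BTG2 0.0151 for the deletion effect under PRL. Signs turned with titles 5 to 12 alone to EGR2 -0.494 for the averaged PRL effect, EGR2 -0.256 and IER2 -0.0316 for the PRL effect with the intact I-tail, IER2 0.0392 and NFKBIZ -0.062 for the PRL effect with the deleted I-tail, EGR1 -0.248 for the untreated deletion effect, EGR2 -0.132 for the deletion effect under PRL, IER2 0.0708, ZFP36 0.0398 and BTG2 0.0162 for the interaction. Signs turned with relative log expression size factors to IER2 0.00874 for the PRL effect with the deleted I-tail. Signs turned with no count filter to IER2 0.00461 for the PRL effect with the deleted I-tail. Signs turned with DESeq2 to IER2 0.00857 for the PRL effect with the deleted I-tail. Signs turned with only the compared groups fitted to IER3 -0.00573 for the untreated deletion effect.

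With 1 library left out, values reached across 0 or the threshold as follows. For the averaged PRL effect the ranges were EGR1 -0.124 to 0.118, EGR2 -0.853 to 0.638, IER2 -0.0418 to 0.0813, IER3 0.64 to 0.804, JUNB 0.81 to 1.03, NAB2 0.65 to 0.933, CXCL2 -0.4 to 0.109 and S100A7 -0.709 to 2.16. For the PRL effect with the intact I-tail the ranges were EGR2 -1.19 to 1.2, IER2 -0.0817 to 0.159 and NFKBIZ -0.0133 to 0.654. For the PRL effect with the deleted I-tail the ranges were EGR2 -1.95 to 1.03, IER2 -0.00976 to 0.0138 and NFKBIZ -0.194 to 0.231. For the averaged deletion effect the ranges were EGR2 -0.506 to 1.11, IER3 -0.109 to 0.0444 and BTG2 -0.104 to 0.124. For the untreated deletion effect the ranges were EGR1 -0.114 to 0.217, EGR2 -0.597 to 1.55, EGR3 -1.87 to 0.0875, IER2 -0.166 to 0.045, IER3 -0.0597 to 0.141, BTG2 -0.187 to 0.184 and SRF -0.205 to 0.138. For the deletion effect under PRL the ranges were EGR2 -1.6 to 1.63, EGR3 -0.715 to 0.0311, IER3 -0.22 to 0.092, BTG2 -0.197 to 0.276, SRF -0.486 to 0.036 and NFKBIZ -0.152 to 0.468. For the interaction the ranges were EGR2 -2.19 to 1.03, EGR3 -0.394 to 1.56, IER2 -0.156 to 0.0798, IER3 -0.243 to 0.0952, IER5 -0.0835 to 0.189, ZFP36 -0.197 to 0.164, BTG2 -0.23 to 0.303, SRF -0.433 to 0.0898 and NFKBIZ -0.584 to 0.083.

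Deviations from group means correlated at 0.0966 to 0.603 in 18 pairs of libraries of the same run of titles, 16 of them above 0.1. In 36 pairs of other runs the values were -0.447 to 0.301, 3 of them above 0.1. With runs numbered in title order, pairs within run 1 gave 0.43 to 0.603. Pairs within run 2 gave 0.0984 to 0.356 and those within run 3 gave 0.0966 to 0.342. All 18 pairs of the same run lay above 0, against 11 of the 36 pairs across runs. The ranges of runs 2 and 3 overlapped that of pairs across runs, so a shared deviation was clearest for run 1. Deviations within a group cancel out, so negative values across runs are not independent evidence of shared runs. The labels give no shared replicate numbers across groups, so the run term is an alternative and not a stated pairing.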

Other observations

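For each of the 10 genes, the genes with the most similar log2 CPM over the 12 libraries were sought among 12945 tested genes with a symbol and a mean of at least 1 CPM, as a description in which libraries share treatment, title run and depth. For IER3 they were the retinoic acid receptor gene RARA (Pearson's r 0.967), IRF2BPL (0.956) and JUNB (0.952), and the averaged PRL log2 fold changes of these 3 were 1.30, 0.37 and 0.94. For SRF they were ARHGEF18 (0.991), KIFC3 (0.990) and TUBA4A (0.988). For BTG2 they were NOTCH1 (0.964), INPP5D (0.961) and TP73 (0.938), and for IER5 RHOV (0.958), GM2A (0.955) and RAB3D (0.945). ZFP36 was nearest to SIX5 (0.959), MINDY1 (0.953) and CDK5R2 (0.950), and IER2 to SMIM10L2B (0.926), JRK (0.924) and ZNF646 (0.921). EGR3 was nearest to FOSB (0.854) and MAFF (0.843), both immediate early genes themselves, and to LAMA5-AS1 (0.842). EGR1 had the lowest of these values, with PODXL (0.821), NOMO2 (0.820) and STC2 (0.799). For EGR2, MED13 (0.983), IPO8 (0.982) and SLMAP (0.981) follow the split between titles 1 to 4 and the rest, and NFKBIZ was nearest to MTMR6 (0.956), PANX1 (0.950) and LYST (0.944).

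The genes differed in how far libraries of a group lay apart. The SD of log2 CPM within groups was 0.15 for IER2, 0.24 for IER3 and IER5, 0.30 for ZFP36, 0.36 for BTG2, 0.38 for EGR1 and 0.40 for SRF, against a median of 0.34 over 12950 tested genes at 1 CPM or more. With a term for title runs it was 0.13 for IER3, 0.12 for IER5, 0.16 for ZFP36, 0.20 for BTG2 and 0.21 for SRF, while for EGR1 it was 0.39. The median over the same 12950 genes also fell with that term, to 0.205.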
